A study of Homo sapiens with 16 samples.

Results

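The 10 cathepsin genes CTSL, CTSV, CTSB, CTSD, CTSK, CTSS, CTSZ, CTSC, CTSH and CTSA were followed through open chromatin in human fibroblasts, out of 19974 protein-coding genes on chromosomes 1 to 22 and X. They were chosen by name, and each was read as the number of distinct ATAC-seq peaks whose summit lay in the hg38 gene body or within 10 kb of either end. ATAC-seq marks open chromatin by where the Tn5 transposase inserts adapters into DNA. The cells were IMR90, an established line of human lung fibroblasts, infected with a retrovirus encoding a truncated B-RAF kinase joined to the estrogen receptor (ΔB-RAF:ER), which 4-hydroxytamoxifen switches on. The 16 libraries formed 4 groups of 4: Raf-inactive normoxia, Raf-active normoxia, Raf-inactive hypoxia and Raf-active hypoxia, with hypoxia at 0.5% oxygen. The labels do not give the time in 4-hydroxytamoxifen or in hypoxia, do not say what the Raf-inactive cells received in its place, and do not say whether replicates were separate cultures. The spread behind each p-value may therefore be technical, being that between these libraries and no more.

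Cathepsins are proteases that work mostly in the acidic lysosome. Most are made as inactive proenzymes, marked with mannose 6-phosphate for delivery to the lysosome and activated by cleavage, and cystatins and some serpins hold the cysteine cathepsins in check outside it. Cathepsin L also acts in the nucleus, where it can clip the tail of histone H3, and histone clipping in Raf-induced senescence is the subject of the series. Lysosomes expand in senescent fibroblasts, and many lysosomal genes carry a promoter E-box read by TFEB and its relatives.

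The gene starts frame the rest, since 8 of the 10 lay under a peak in all 16 libraries. The share of all gene starts under such a peak was not counted. RefSeq promoter windows (GRCh38.p14, 250 bases before to 50 after the gene start) were found for 7 genes: CTSL, CTSV, CTSD, CTSZ, CTSC, CTSH and CTSA. Those of the paralogs CTSL and CTSV are shown because they share an exact stretch of 23 bases, gccggcacagCCAATcgcagcgc, and those of CTSD and CTSA because they hold the E-box. Capitals mark matches on either strand to the GC box GGGCGG, the CCAAT box CCAAT and the E-box CACGTG. All 4 are written 5′ to 3′ on the gene's own strand, plus for CTSL (chr9:87725869-87726168) and CTSA (chr20:45891085-45891384) and minus for CTSV (chr9:97039093-97039392) and CTSD (chr11:1763878-1764177).
CTSL: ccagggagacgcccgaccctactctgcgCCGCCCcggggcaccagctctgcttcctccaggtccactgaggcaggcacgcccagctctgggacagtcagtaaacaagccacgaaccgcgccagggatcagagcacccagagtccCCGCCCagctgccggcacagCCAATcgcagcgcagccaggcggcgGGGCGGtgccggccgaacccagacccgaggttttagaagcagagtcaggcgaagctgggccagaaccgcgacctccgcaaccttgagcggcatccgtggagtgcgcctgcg
CTSV: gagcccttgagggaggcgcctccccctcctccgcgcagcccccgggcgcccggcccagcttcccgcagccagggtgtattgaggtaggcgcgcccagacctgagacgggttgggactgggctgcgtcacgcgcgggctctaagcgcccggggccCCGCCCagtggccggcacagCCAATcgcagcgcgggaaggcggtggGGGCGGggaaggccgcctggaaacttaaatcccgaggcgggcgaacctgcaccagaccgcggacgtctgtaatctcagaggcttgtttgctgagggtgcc
CTSD: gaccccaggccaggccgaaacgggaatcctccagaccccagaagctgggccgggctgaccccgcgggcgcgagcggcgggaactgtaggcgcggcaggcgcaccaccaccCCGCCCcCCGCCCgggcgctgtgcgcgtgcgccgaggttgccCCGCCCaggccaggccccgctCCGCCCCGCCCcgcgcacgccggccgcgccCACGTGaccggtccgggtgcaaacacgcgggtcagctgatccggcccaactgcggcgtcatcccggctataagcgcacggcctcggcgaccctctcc
CTSA: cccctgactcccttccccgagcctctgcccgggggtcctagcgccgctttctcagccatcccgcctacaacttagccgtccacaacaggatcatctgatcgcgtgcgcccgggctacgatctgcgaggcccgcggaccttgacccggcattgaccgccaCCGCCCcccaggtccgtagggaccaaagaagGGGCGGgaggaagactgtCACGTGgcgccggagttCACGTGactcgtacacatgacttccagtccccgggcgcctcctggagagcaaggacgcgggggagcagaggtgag

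Among the 21 pairs of these 7 windows, the next longest exact match after the 23 bases of CTSL and CTSV was 13 bases. The shared stretch began 96 bases before the start of CTSL and 86 before that of CTSV, and it held the CCAAT box of both. The E-box CACGTG, the core of the site that TFEB reads, occurred once in CTSD and in 2 copies in CTSA, in none of the other 5 windows, and in 7.26% of the 35116 windows in the RefSeq table. The GC box was in all 7 against 45.0% of all windows, and the CCAAT box was in CTSL, CTSV and CTSC against 34.6%. No window held the AP-1 letters TGANTCA (7.71% of all windows) or TATAAA (11.5%). The HIF core ACGTG, part of the E-box letters, was in CTSD and CTSA (21.4% of all windows), and the other HIF core GCGTG was in all but CTSZ (36.5%). GC content ran from 58.0% in CTSC to 81.0% in CTSZ, against a median of 58.7%. These matches describe letters in a window and say nothing of binding.

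The lists held 169287 to 206757 distinct peaks per library. Read totals are not in these lists, and depth was read as the background pileup, the coverage expected at a peak without enrichment, recovered from the listed fold and p. It ran from 3.01 to 3.50 in Raf-inactive normoxia, 6.09 to 7.10 in Raf-active normoxia, 4.61 to 5.02 in Raf-inactive hypoxia and 6.53 to 8.34 in Raf-active hypoxia. Depth thus rose with Raf activity, so each peak number was scaled to the same total over all loci, and the counts were repeated on lists thinned to the lowest background, called matched depth below. Changes are given as log2 of the scaled number plus 1 with the standard error, called by limma at an adjusted p below 0.05 over 15118 loci with a mean of at least 3 scaled peaks. CTSV, with about 1 peak a library, fell under that minimum, which left 9 cathepsin loci tested. A call of a peak number is not a measure of RNA, protein or enzyme activity.

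At the gene starts themselves, 2 of the 10 genes differed between the Raf groups. How many of all gene starts differ in this way was not counted, so the number is not shown to be particular to cathepsins. CTSK, the collagen-degrading cathepsin best known from osteoclasts, had no peak within 500 bp of its start in any of the 8 Raf-inactive libraries. All 8 Raf-active libraries had a peak (merged region chr1:150807311-150808240) that ended 20 bp short of the annotated start. Its fold over background was 5.38 to 7.94 in Raf-active normoxia and 3.68 to 4.13 in Raf-active hypoxia, where it ranked low, at percentiles 14.8 to 21.5 of its lists by p. Another region, 39 bp upstream of the CTSK start, was called in 4 of 4 Raf-active normoxia libraries, at 3.03 to 3.73-fold, and in no others. Just beyond the 500 bp, a region 659 bp upstream was called in 3 of 4 Raf-inactive hypoxia libraries and in no others. CTSS, which trims the invariant chain of MHC class II in antigen-presenting cells, showed the same split. The region over its start (chr1:150765671-150766071) was called in 0 of 8 Raf-inactive and 8 of 8 Raf-active libraries, at 7.74 to 9.15-fold in normoxia and 4.75 to 6.62-fold in hypoxia. The chromatin beside it was open without Raf: a region that ends 495 bp inside the gene from the CTSS start (chr1:150764547-150765283) was called in all 16 libraries, at 12.9 to 18.6-fold. At matched depth the CTSS region stayed in 4 of 4 Raf-active libraries of both oxygen states, and the CTSK region in 4 of 4 in normoxia and 2 of 4 in hypoxia.

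The other 8 genes had an open start in every library. CTSV, the paralog of CTSL known from thymus and testis, had the start peak with the highest ranks of the 10, at percentiles 95.8 to 98.9 of its lists and at 20.0 to 23.5-fold. It was the only peak of the CTSV locus in 15 of 16 libraries. The start of CTSL ranked at percentiles 86.9 to 97.8, and those of CTSB, CTSD, CTSZ, CTSC, CTSH and CTSA at 63.8 to 93.0. Fold and rank depend on depth in these lists, so they are given as a description of each list and were not compared by a test.

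**Figure D1:**
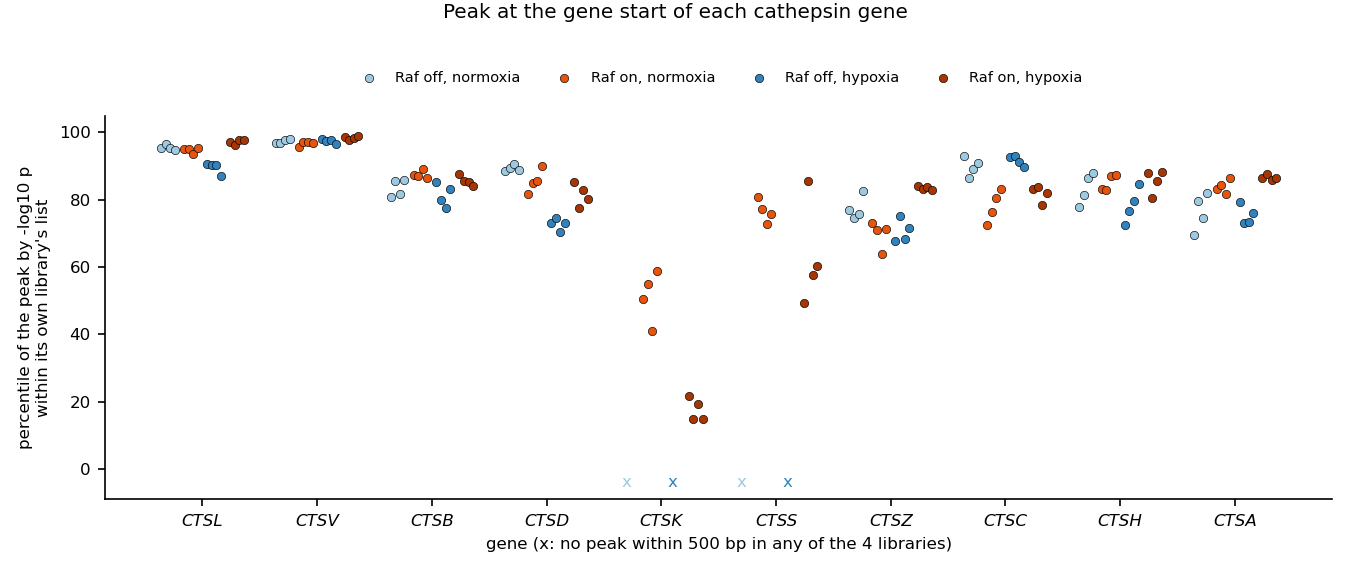
Percentile rank by p, within its own library's list, of the peak over each gene start (y axis, percent), for 4 libraries of each group (points). Where no peak covered the start, the strongest peak within 500 bp was taken. Raf off and Raf on stand for Raf-inactive and Raf-active; CTSK and CTSS have no such peak in Raf-inactive libraries (crosses), and the CTSS point at 85.5 in Raf-active hypoxia is a neighbouring peak within 500 bp.

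With Raf active in normoxia, CTSL, CTSD and CTSH rose and CTSC fell in peak number, and the other 5 tested loci did not pass the test. Of the 9 tested loci 3 were higher and 1 lower. Over all loci 63.0% were called, 37.1% higher and 25.9% lower, so a call is common and the share of cathepsin loci called was not above it. The median log2 change of the 9 loci was 0.17 and that of all loci 0.10. In hypoxia, Raf activity went with higher peak numbers at CTSL, CTSD, CTSS and CTSZ and lower ones at CTSC and CTSA, 6 of 9 loci. There 60.1% of all loci were called, 33.5% higher and 26.6% lower, and the medians were 0.12 for the cathepsin loci and 0.05 for all. Without scaling the median of all loci was 0.33 in normoxia and 0.29 in hypoxia, and 77.6% and 78.4% of the calls were higher, in place of 58.9% and 55.7%. CTSL, CTSD and CTSC kept their direction and call without scaling, and CTSB was then called higher in both oxygen states (0.41 and 0.36), CTSK (0.31) and CTSZ (0.43) in normoxia and CTSH (0.28) in hypoxia, while the CTSA call in hypoxia was lost (-0.12).

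**Figure D2:**
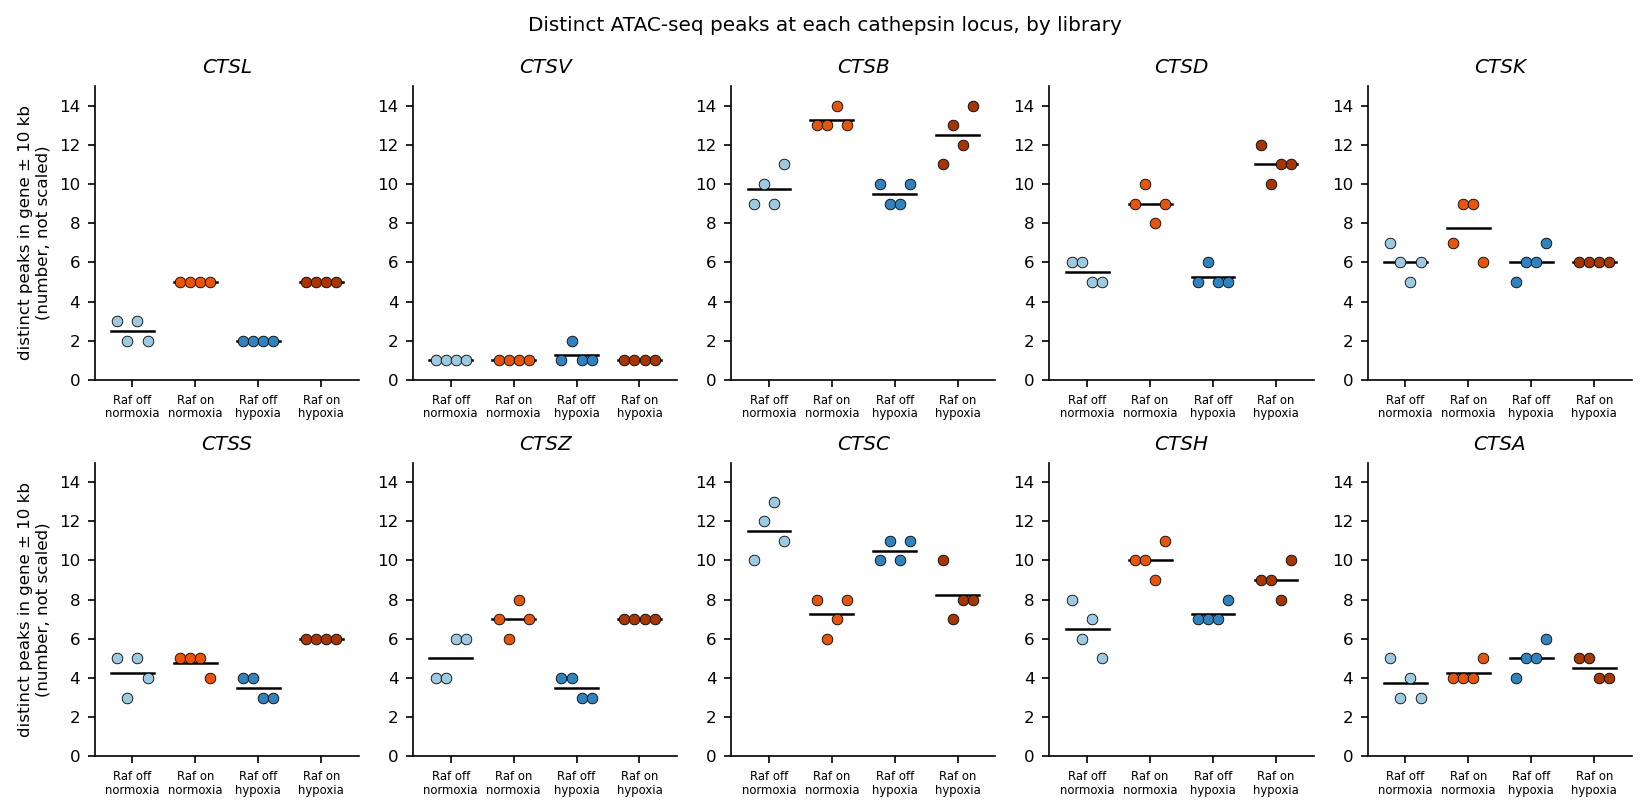
Distinct peaks at each cathepsin locus (y axis, number, not scaled) in each of the 16 libraries (points) with the group mean (line). CTSL and CTSD are higher and CTSC lower in Raf-active than in Raf-inactive libraries, and CTSV has 1 peak in 15 of 16.

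CTSL, the cysteine endopeptidase with the histone-clipping activity, had 3, 2, 3 and 2 peaks in the Raf-inactive normoxia libraries and 5 in each of the 4 Raf-active ones. The hypoxia libraries held 2 peaks each with Raf inactive and 5 each with Raf active. The Raf groups do not overlap in either oxygen state. The change was 0.59 ± 0.09 (adjusted p = 3.43e-05) in normoxia and 0.80 ± 0.09 (adjusted p = 1.45e-06) in hypoxia. Mean scaled peaks were 2.70 and 2.24 with Raf inactive, in normoxia and hypoxia, and 4.51 and 4.66 with Raf active. CTSL thus passed the minimum mean of 3 only through its Raf-active groups. The change was called in both states under all 28 alternatives that gave a value, fewer than the 31 for CTSD and CTSC. CTSL was not tested at a mean of at least 5 peaks, with peaks of at least 5-fold or with 2 kb on each side. Its call is therefore not shown to hold under those settings. The lists matched in depth held 2 to 3 against 5 peaks in normoxia and 1 to 2 against 4 to 5 in hypoxia.

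The added CTSL peaks lay past the 3′ end of the gene, away from its start. A region across the end of the gene (chr9:87731391-87731675) was called in 0 of 8 Raf-inactive and 8 of 8 Raf-active libraries. It stood at only 2.42 to 3.65-fold, at a median percentile of 46 in Raf-active normoxia and 39 in Raf-active hypoxia. A broader one next to it (chr9:87732071-87734597) was called in 2 and 0 of 4 Raf-inactive libraries, in normoxia and hypoxia, and in all 8 Raf-active ones. There it stood at 4.16 to 5.13-fold in normoxia and 4.44 to 5.41-fold in hypoxia, at median percentiles of 56.4 and 61.4. No other protein-coding gene lies in the CTSL window, so these peaks fall inside no other annotated protein-coding gene.

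CTSD, the main aspartic protease of the lysosome, had 6, 6, 5 and 5 peaks in Raf-inactive normoxia and 9, 10, 8 and 9 in Raf-active normoxia. The hypoxia libraries held 5, 6, 5 and 5 peaks with Raf inactive and 12, 10, 11 and 11 with Raf active. Every Raf-active library lies above every Raf-inactive one. The Raf change was 0.39 ± 0.08 (adjusted p = 0.000611) in normoxia and 0.71 ± 0.08 (adjusted p = 1.91e-06) in hypoxia, and both were called under every alternative.

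An upstream region carried the clearest of these changes. It lay 6648 bp before the CTSD start (chr11:1770575-1770987), with 0 calls in 8 Raf-inactive libraries and 8 in 8 Raf-active ones. Where called, it stood at percentiles 90.3 to 94.1 of its lists at 6.51 to 7.86-fold, and matched depth left the calls as they were. A second region with the same split (chr11:1744248-1744827) overlaps IFITM10, a neighbouring gene, so it cannot be assigned to CTSD alone. Inside the gene, chr11:1757909-1758551 was called in no Raf-inactive library, in 3 of 4 in Raf-active normoxia and in 4 of 4 in Raf-active hypoxia.

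CTSC, a dipeptidyl peptidase that activates the serine proteases of immune cells, moved the other way. It had 10, 12, 13 and 11 peaks in Raf-inactive and 8, 6, 7 and 8 in Raf-active normoxia, which do not overlap. In hypoxia it had 10, 11, 10 and 11 with Raf inactive and 10, 7, 8 and 8 with Raf active, which meet at 10. The change was -0.83 ± 0.11 (adjusted p = 3.58e-06) in normoxia and -0.56 ± 0.11 (adjusted p = 0.000225) in hypoxia, both called under every alternative.

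A region inside CTSC (chr11:88312533-88313195) was the only one of the 98 cathepsin regions lost with Raf in both oxygen states. The share of all regions lost in both was not counted. This CTSC region was called at 6.54 to 8.60-fold in Raf-inactive normoxia, at 5.21 to 8.77-fold in Raf-inactive hypoxia, and in no Raf-active library. A neighbouring region of the gene body (chr11:88310067-88310662) was called in both Raf-inactive groups and in Raf-active hypoxia, and in 0 of 4 libraries of Raf-active normoxia. A further region past the gene (chr11:88288591-88288914) was called in 4 and 2 of 4 Raf-inactive libraries and in no Raf-active one. The start of CTSC was open in all 16.

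CTSH, an aminopeptidase, had 8, 6, 7 and 5 peaks in Raf-inactive and 10, 10, 9 and 11 in Raf-active normoxia. The numbers as listed do not overlap. The scaled ones do, with 8.64 in Raf-inactive normoxia replicate 1 and 8.54 in Raf-active normoxia replicate 3. The change was 0.33 ± 0.11 (adjusted p = 0.0128). Without Raf-inactive normoxia replicate 4 this was 0.23 with an adjusted p of 0.0531, and with a window of 50 kb on each side it turned to -0.18 (adjusted p = 0.0102). The hypoxia numbers were 7, 7, 7 and 8 with Raf inactive and 9, 9, 8 and 10 with Raf active, which meet at 8, and the scaled change of 0.04 ± 0.11 was not called (adjusted p = 0.772). The lists matched in depth gave 0.36 there (adjusted p = 0.0132). A region in the gene body (chr15:78926440-78927513) and one past its end (chr15:78913873-78914709) were called in 0 of 8 Raf-inactive and 8 of 8 Raf-active libraries.

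CTSZ, a carboxypeptidase also named cathepsin X, had 4, 4, 6 and 6 peaks in Raf-inactive and 7, 6, 8 and 7 in Raf-active normoxia. The groups meet at 6, and the change of 0.21 ± 0.13 was not called (adjusted p = 0.156). In hypoxia it had 4, 4, 3 and 3 against 7 in all 4 Raf-active libraries, a change of 0.62 ± 0.13 (adjusted p = 0.000428). At matched depth that change was 0.21 and not called (adjusted p = 0.147), and with peaks of at least 5-fold it turned to -0.10 (adjusted p = 0.382). The regions gained at CTSZ were of low rank, such as chr20:59005115-59005647 at a median percentile of 6.68 in Raf-active normoxia and 9.65 in Raf-active hypoxia.

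CTSS had 5, 3, 5 and 4 peaks in Raf-inactive and 5, 5, 5 and 4 in Raf-active normoxia, which overlap, with a change of -0.06 ± 0.12 (adjusted p = 0.658). In hypoxia it had 4, 4, 3 and 3 with Raf inactive and 6 in each Raf-active library, a change of 0.43 ± 0.12 (adjusted p = 0.00583), which a window of 50 kb took to 0.11 (adjusted p = 0.297). The even number in normoxia hides an exchange of peaks. Besides the region at its start, an upstream region (chr1:150770924-150771340) was called in 2 and 0 of 4 Raf-inactive libraries, at 3.72 to 3.90-fold, and in all 8 Raf-active ones. There it stood at 17.0 to 21.0-fold in normoxia and 6.32 to 8.83-fold in hypoxia. A region within the gene (chr1:150763954-150764372) was called in 2 of 4 Raf-inactive and 0 of 4 Raf-active libraries in normoxia and in 4 of 4 of both groups in hypoxia.

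CTSK showed a like exchange. It had 7, 6, 5 and 6 peaks in Raf-inactive and 7, 9, 9 and 6 in Raf-active normoxia, and 5, 6, 6 and 7 against 6 in each Raf-active library in hypoxia. The groups overlap in both, and the changes of 0.09 ± 0.12 (adjusted p = 0.550) and -0.22 ± 0.12 (adjusted p = 0.131) were not called. The first was called higher with a window of 50 kb on each side, at 0.30 (adjusted p = 0.00299). At matched depth the second was -0.48 and called (adjusted p = 0.00789). While the peak near its start was gained, a region of the gene body (chr1:150804642-150805193) went from 4 of 4 libraries of both Raf-inactive groups to 1 of 4 in Raf-active normoxia and 0 of 4 in Raf-active hypoxia. Another, past the gene (chr1:150787515-150788341), went from 4 of 4 to 2 of 4 and 0 of 4. A further one, upstream and inside ARNT, the gene of the HIF-1 beta subunit (chr1:150809659-150810114), was called in every group but Raf-active normoxia, where it was in 0 of 4.

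CTSB, an abundant cysteine cathepsin that also trims peptide ends, had 9, 10, 9 and 11 peaks in Raf-inactive and 13, 13, 14 and 13 in Raf-active normoxia. Hypoxia gave 10, 9, 9 and 10 with Raf inactive and 11, 13, 12 and 14 with Raf active. The numbers as listed do not overlap, yet the scaled changes of 0.17 ± 0.09 (adjusted p = 0.0929) and 0.12 ± 0.09 (adjusted p = 0.258) were not called, and at matched depth they were -0.00085 and 0.0047. Other settings called CTSB in opposite directions: lower with peaks of at least 5-fold (-0.18, adjusted p = 0.0039, and -0.15, adjusted p = 0.0138) and higher in base pairs covered (0.17, adjusted p = 0.00844, and 0.28, adjusted p = 0.000183). Without Raf-inactive normoxia replicate 4 the normoxia change was 0.22 and called higher (adjusted p = 0.0452). The gained regions ranked low, as at chr8:11854772-11855148, with a median percentile of 16.4 in Raf-active normoxia and 7.53 in Raf-active hypoxia. A better ranked region of the gene body (chr8:11864739-11865171) went from 4 of 4 libraries in both Raf-inactive groups to 1 of 4 and 0 of 4.

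CTSA, a serine carboxypeptidase that also protects beta-galactosidase and neuraminidase in the lysosome, had 5, 3, 4 and 3 peaks in Raf-inactive and 4, 4, 4 and 5 in Raf-active normoxia, a change of -0.05 ± 0.13 (adjusted p = 0.778). Hypoxia gave 4, 5, 5 and 6 with Raf inactive and 5, 5, 4 and 4 with Raf active. These overlap, and the call of -0.34 ± 0.13 (adjusted p = 0.0359) was lost without any 1 of 5 libraries: Raf-inactive hypoxia replicates 2, 3 and 4 and Raf-active hypoxia replicates 3 and 4, at an adjusted p of 0.0623 to 0.118. It was lost at matched depth too, at -0.17 (adjusted p = 0.254), and with the replicate number as a block (adjusted p = 0.0574). No region of the CTSA window was gained or lost, and the window also holds ZSWIM1, SPATA25, NEURL2 and PLTP. CTSV had 1 peak in each library but Raf-inactive hypoxia replicate 2, which had 2.

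**Figure D3:**
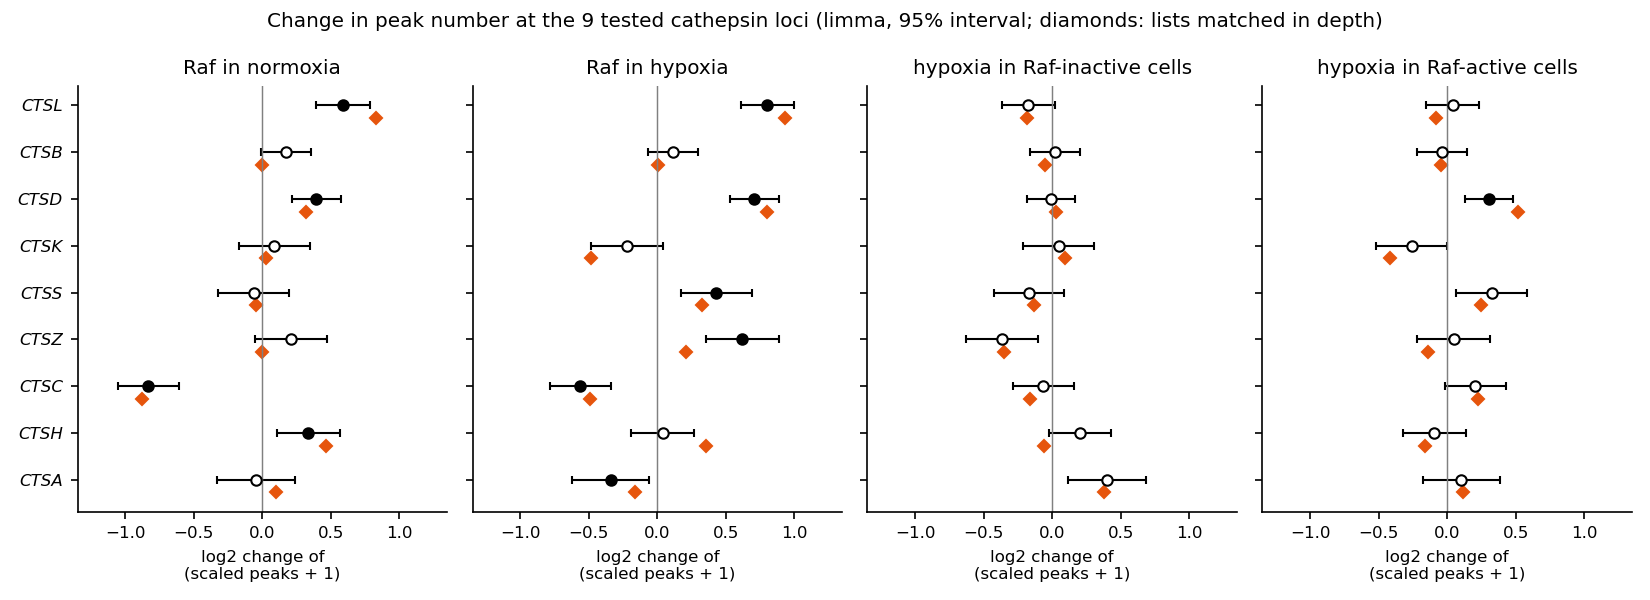
Log2 change of scaled peaks plus 1 (x axis) at the 9 tested cathepsin loci with its 95% interval, filled where the adjusted p is below 0.05, and the value from lists matched in depth (diamonds). CTSL, CTSD and CTSC keep their direction and call at matched depth, CTSL in normoxia goes from 0.59 to 0.83, CTSZ in hypoxia falls from 0.62 to 0.21, and CTSH in hypoxia goes from 0.04 to 0.36.

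Hypoxia alone moved the cathepsin loci less. In Raf-inactive cells 0 of 9 loci were called by limma and 2 had an unadjusted p below 0.05, CTSZ at -0.37 ± 0.13 (adjusted p = 0.0652) and CTSA at 0.40 ± 0.13 (adjusted p = 0.0589). Over all loci 12.8% were called there, 6.01% higher and 6.79% lower. In Raf-active cells CTSD rose by 0.31 ± 0.08 (adjusted p = 0.0119) and no other of the 9 was called, against 27.1% of all loci, 13.0% higher and 14.1% lower. Higher calls made up 47.0% of calls with Raf inactive and 48.0% with Raf active, and without scaling 29.3% and 37.7%. That CTSD change was 0.07 and not called (adjusted p = 0.191) when base pairs covered were counted, and -0.07 (adjusted p = 0.507) when only peaks of at least 5-fold were kept. CTSS, at 0.32 ± 0.12 (adjusted p = 0.0580), missed the threshold.

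The difference between the Raf change in hypoxia and that in normoxia was called at 0 of 9 loci, with 3 at an unadjusted p below 0.05, against 18.3% of all loci, 9.16% in each direction. The nearest to the threshold were CTSS at 0.50 ± 0.17 (adjusted p = 0.0548), CTSD at 0.32 ± 0.12 (adjusted p = 0.0747) and CTSZ at 0.41 ± 0.18 (adjusted p = 0.116). For CTSD the lists matched in depth gave 0.49 (adjusted p = 0.0174), and peaks of at least 5-fold the opposite sign, -0.31 (adjusted p = 0.0256). Calls for CTSS, CTSZ and CTSA with Raf in hypoxia alone, and for CTSH in normoxia alone, are thus not shown to differ between oxygen states. For CTSL the 95% interval of the difference ran from -0.06 to 0.49.

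**Figure D4:**
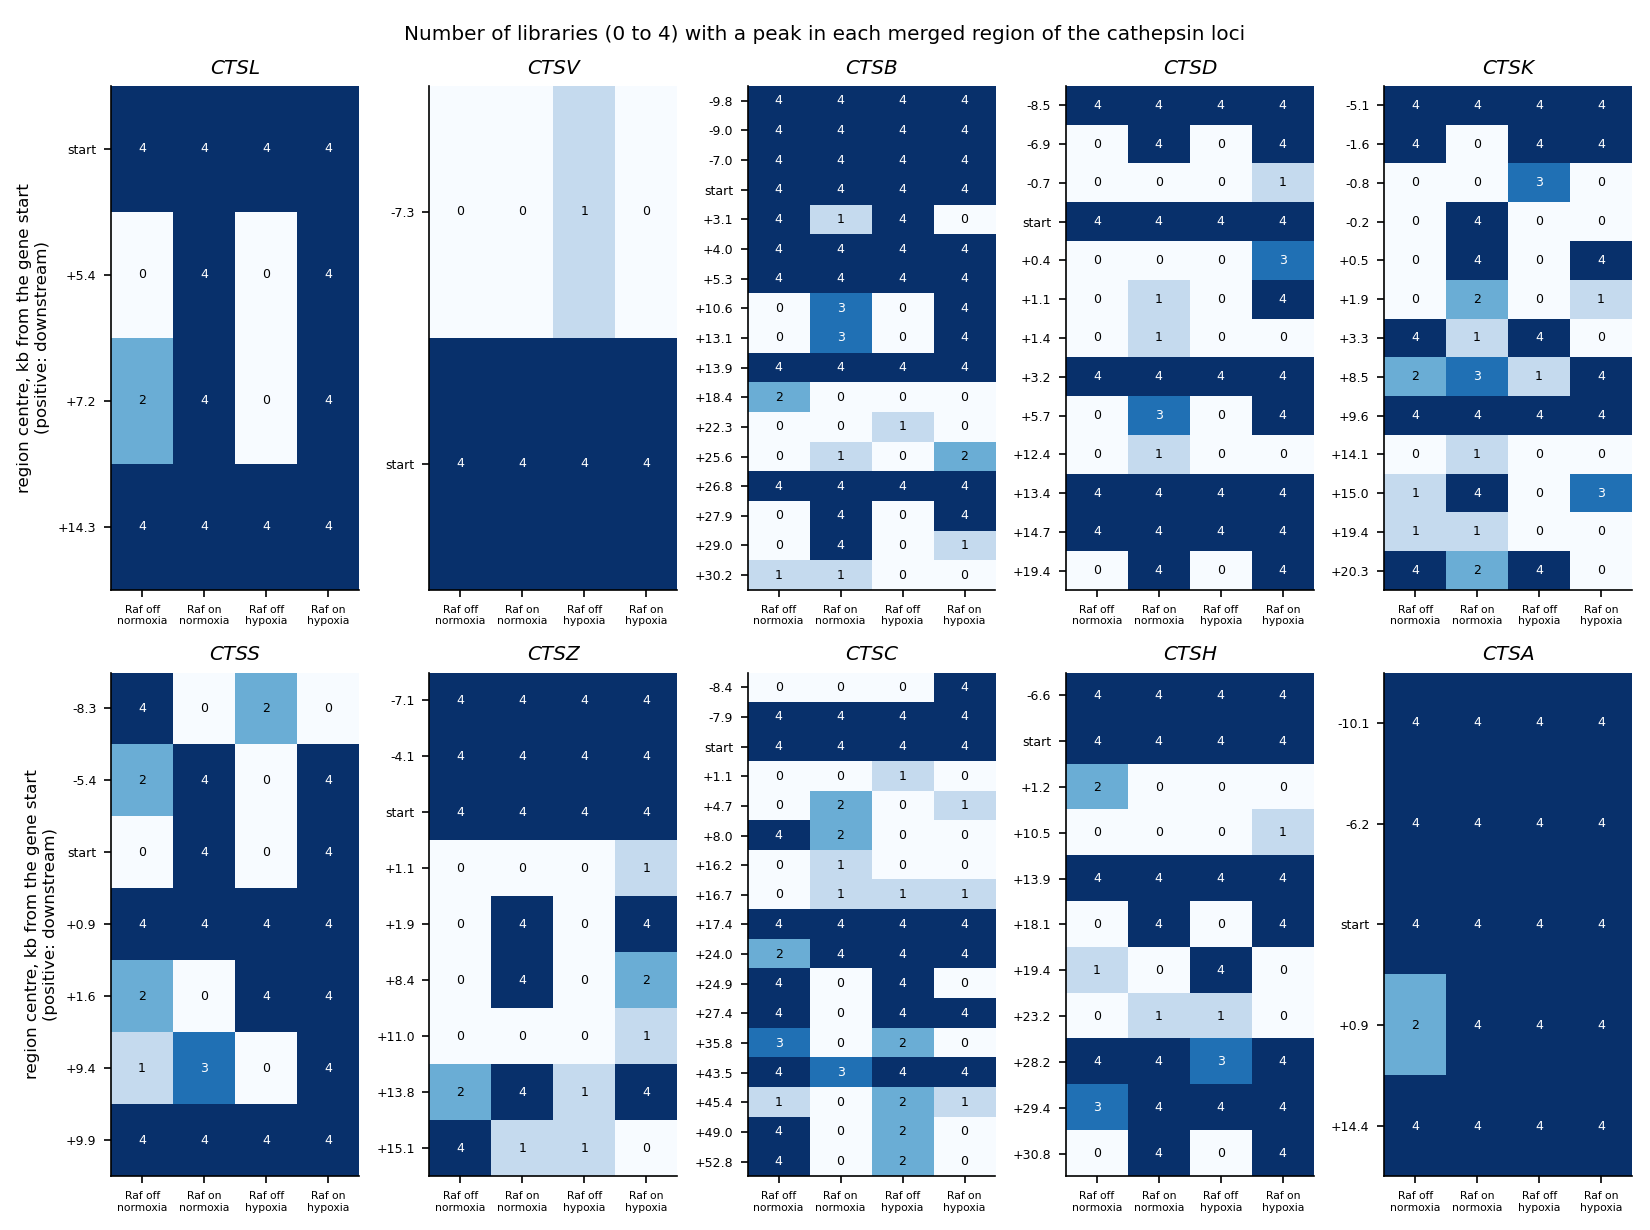
Number of libraries (0 to 4, shade and digit) with a peak in each merged region of the 10 cathepsin windows, by group, with rows ordered by distance of the region's centre from the gene start (kb, positive downstream). Raf off and Raf on stand for Raf-inactive and Raf-active. CTSL, CTSB, CTSD, CTSK, CTSS, CTSZ and CTSH show rows with 0 in both Raf-inactive and 4 in both Raf-active groups. CTSC shows 1 row with the reverse, and CTSV and CTSA show none.

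Merging the 16 lists gave 98 regions in the cathepsin windows, of which 33 were called in all 16 libraries (33.7%, against 22.2% of 355447 regions in the genome). Gained regions had a peak in all 4 libraries of the Raf-active or hypoxic group and in none of the 4 others, and lost regions the reverse. With Raf in normoxia 12 of 98 were gained and 6 lost, against 11.9% and 8.96% of all regions. With Raf in hypoxia 17 were gained and 5 lost, against 11.6% and 7.42%. Hypoxia in Raf-inactive cells gained 0 and lost 1 (1.26% and 1.34% of all regions), and in Raf-active cells it gained 4 and lost 1 (3.11% and 2.58%). In all, 32 of the 98 changed in some comparison, 32.7% against 30.9% of all regions, so cathepsin regions changed about as often as others.

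Of the regions that changed, 18 lay in gene bodies and 14 in the flanks, and 1 covered a gene start, that of CTSS. Raf activity gained 9 regions in both oxygen states, at CTSL, CTSD, CTSB, CTSK, CTSS, CTSZ and CTSH. It lost 1 in both, at CTSC. The shares of all regions gained or lost in both states were not counted. At matched depth the split of 4 against 0 remained for 7 of the 12 regions gained and 6 of the 6 lost in normoxia, and for 8 of the 17 gained and 4 of the 5 lost in hypoxia. Windows of CTSL, CTSV, CTSC and CTSH held no other protein-coding gene, while those of the other 6 did. A peak counts for another gene too only where its summit also lies in that gene's own window.

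For CTSL and CTSC, the cathepsin loci with the lowest adjusted p for Raf in normoxia, the loci on other chromosomes with the most similar pattern over the 16 libraries were listed by Pearson r of the log2 values. For CTSL these were SMIM22 (r = 0.980), SEPTIN12 (0.979) and TANGO2 (0.977). SMIM22 and SEPTIN12 both lie on chromosome 16. Their mean scaled peaks were equal in Raf-inactive normoxia (1.89) and in Raf-inactive hypoxia (1.12). Whether their windows share peaks was not checked, so they may not be separate loci in these counts. For CTSC they were PGAP4 (0.960), METAP1D (0.959) and POGLUT1 (0.958). The 16 values fall into 4 groups and share the depth of their libraries, so r is a description.

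Among the 5 other cathepsin genes 3 were tested. With Raf in normoxia 2 were higher and 1 lower, beside 37.1% and 25.9% of all loci. In hypoxia 0 were higher and 1 lower, beside 33.5% and 26.6%. With hypoxia in Raf-inactive cells 1 was higher and 0 lower, beside 6.01% and 6.79%. CTSO, a widely expressed cysteine cathepsin, fell with Raf by 1.10 on the log2 scale in normoxia (adjusted p = 4.09e-05) and by 1.42 in hypoxia (adjusted p = 2.98e-06). CTSW, known from cytotoxic lymphocytes, rose by 0.68 with Raf in normoxia (adjusted p = 0.000274) and by 0.52 with hypoxia in Raf-inactive cells (adjusted p = 0.0168), and CTSE, an aspartic cathepsin, rose by 0.27 with Raf in normoxia (adjusted p = 0.0210). CTSG had no peak in any group.

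Among the inhibitors of cysteine cathepsins calls with Raf were no more common than over all loci. Of 13 inhibitor genes 7 were tested: 3 rose and 1 fell with Raf in normoxia, where 63.0% of all loci were called, against 2 higher and 1 lower in hypoxia, where 60.1% were. CST1, a secreted cystatin, rose in both (0.81, adjusted p = 7.81e-05, and 0.52, adjusted p = 0.00387). CSTB, an intracellular cystatin, rose by 0.51 in normoxia (adjusted p = 0.000442) and fell by 0.35 with hypoxia in Raf-active cells (adjusted p = 0.0201). CST2 rose by 0.31 with Raf in normoxia (adjusted p = 0.0174) and by 0.41 with hypoxia in Raf-inactive cells (adjusted p = 0.0189), and its Raf change was lower in hypoxia by a tested difference of -0.54 (adjusted p = 0.0217). CST4 rose with Raf in hypoxia (0.62, adjusted p = 0.000453) and with hypoxia in Raf-active cells (0.35, adjusted p = 0.0490). The genes CST1, CST2 and CST4 lie near each other on chromosome 20, in windows that do not overlap. SERPINB13, a serpin that inhibits cathepsins, fell with Raf in both (-0.19, adjusted p = 0.0382, and -0.37, adjusted p = 0.000669). The median of the 7 was 0.28 with Raf in normoxia and 0.10 in hypoxia, against 0.10 and 0.05 for all loci.

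The genes that deliver and activate cathepsins were mixed: of 7 tested, 2 were higher and 2 lower with Raf in normoxia, against 3 higher and 1 lower in hypoxia, beside the 63.0% and 60.1% of all loci called. LGMN, the legumain protease that processes several cathepsins, rose by 0.48 and 0.51 (adjusted p = 0.000375 and 0.000218), and PSAP, the precursor of the saposins, by 0.36 and 0.59 (adjusted p = 0.00201 and 2.85e-05). GNPTAB, a subunit of the enzyme that starts the mannose 6-phosphate mark, fell by 1.03 and 0.67 (adjusted p = 2.14e-07 and 2.99e-05). Among 20 tested lysosomal membrane and enzyme genes 4 rose and 6 fell with Raf in normoxia, and hypoxia had 3 higher and 4 lower, both below the share over all loci. Among 11 regulators of lysosomal genes 5 rose and 3 fell in normoxia, against 3 in each direction in hypoxia. Shares of all loci were 37.1% higher and 25.9% lower in normoxia and 33.5% and 26.6% in hypoxia. TFEB itself was not called (0.09, adjusted p = 0.447, and 0.12, adjusted p = 0.301), while of its 3 relatives MITF (-1.03, adjusted p = 3.28e-09) and TFEC (-2.60, adjusted p = 2.57e-11) fell and TFE3 rose (0.53, adjusted p = 0.0170) with Raf in normoxia. The Raf change of TFE3 was lower in hypoxia by a tested difference of -0.95 (adjusted p = 0.0171). Those of MITF and TFEC were less negative in hypoxia, by tested differences of 0.47 (adjusted p = 0.00489) and 0.89 (adjusted p = 0.00182). Of the 11 regulators 2 were higher and 1 lower for this difference, beside 9.16% of all loci in each direction. With hypoxia the counts were lower, as they were over all loci. In Raf-inactive cells 0 of 20 lysosomal genes rose and 2 fell, beside 6.01% and 6.79% of all loci. In Raf-active cells 2 rose and 0 fell, beside 13.0% and 14.1%.

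Each of 12 fibroblast marker loci had a peak in all 4 libraries of every group. So did all 7 endothelial and all 8 blood and macrophage marker loci, and 7 or 8 of the 8 epithelial ones. A peak in these windows therefore does not tell the cell types apart, and the labelled cell type was not checked by it. With Raf in normoxia, 2 of the 12 fibroblast markers were higher and 4 lower, beside 37.1% and 25.9% of all loci. In hypoxia 1 was higher and 8 lower, beside 33.5% and 26.6%. Their summed scaled peaks were 118 to 126 in Raf-inactive and 110 to 117 in Raf-active normoxia and 132 to 136 and 102 to 103 in hypoxia. Markers of blood cells and macrophages, cell types known for CTSS and CTSC, summed to 42.5 to 48.7, 51.7 to 58.4, 51.4 to 52.1 and 60.1 to 63.6 in the groups in the order of the opening, and of 7 tested 5 rose and 1 fell with Raf in normoxia and 3 were higher and 1 lower in hypoxia, beside 37.1% and 25.9%, and 33.5% and 26.6%, of all loci. Epithelial markers (39.0 to 43.6, 49.0 to 51.3, 40.0 to 42.5 and 53.1 to 57.9) and endothelial markers (77.7 to 81.2, 89.2 to 94.9, 85.6 to 90.7 and 87.3 to 93.1) also moved between groups. No marker locus was without a peak in any group. The part of these shifts in the cathepsin results was not tested.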

How the data were processed

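The 16 narrowPeak lists hold the peaks of 1 library each. The submitters' processing notes name MACS2, Bowtie2, bedtools, SAMtools, cutadapt, FastQC, deepTools and Picard with hg38, with no versions. The authors deposited for each peak a score, the fold as a ratio over local background, and a -log10 p and -log10 q. These depend on depth, so they served only within a list.

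Lines with the same interval were counted as 1 peak on chromosomes 1 to 22 and X. Peak numbers per locus (RefSeq gene body plus 10 kb, GRCh38.p14) were scaled to equal totals and fitted as log2(scaled peaks + 1), with a mean for each of 4 groups over 16 libraries, in limma 3.58.1 under R 4.3.3. Loci had a mean of at least 3 peaks, p was Benjamini-Hochberg adjusted over 15118 loci, and the fit was tested on simulated data. Read totals are unknown. The background pileup was recovered from fold and -log10 p; the value of a library explained 76.7% to 100% of its 60 commonest folds, with every value below 100% in Raf-inactive normoxia, the group that set the matched depth, which is less sure for it. For matched depth, pileups were thinned binomially to the lowest background and peaks of a -log10 p from 5 up were kept. CTSB, CTSK and CTSS starts were taken as the gene end on the minus strand.

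The members and lists were chosen with earlier results of these data known. All 10 members are named, with coordinates of up to 3 changed regions each by median rank, and the cathepsins and inhibitors that passed. LGMN, PSAP, GNPTAB, TFEB, MITF, TFEC and TFE3 were named after their values were seen.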

Additional observations from a re-analysis of the deposited data

Results flagged for a closer look

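In 40 groups of 4 scaled peak numbers (10 genes in 4 groups), 5 held a library set apart from the other 3 by a wide gap, where chance flags about 1 in 20 independent groups. These groups are small whole numbers that share the scaling of their library, so that rate was not shown to apply to them. In Raf-active normoxia, replicate 3 stood apart at CTSL (4.74 against 4.41 to 4.46), at CTSV (0.949 against 0.883 to 0.892) and at CTSB (13.3 against 11.5 to 11.6). CTSL had 5 listed peaks and CTSV 1 in all 4 of these libraries, so at both the gap comes from the scaling alone. In Raf-inactive hypoxia, replicate 2 stood apart at CTSV (2.24 against 1.11 to 1.14), where it had 2 peaks and the others 1, and at CTSD (6.71 against 5.55 to 5.71), where it had 6 and the others 5.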

How the results depend on the processing

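Each result was recomputed under 15 other settings and without each of the 16 libraries in turn. The Raf calls of CTSL, CTSD and CTSC held in both oxygen states under each alternative that gave a value, 28 for CTSL and 31 for CTSD and CTSC. CTSS with Raf in hypoxia was lost with 50 kb on each side, CTSZ at equal list length (0.21) and at matched depth, and CTSH and CTSA as given above. Of 100 changes of direction, 4 were of called changes (CTSH with Raf in normoxia, CTSZ and CTSA with Raf in hypoxia, and CTSD with hypoxia in Raf-active cells) and 96 of changes that were not called, 89 of them not called under the alternative either. The cause was not tested. The numbers after a group name below are the replicates whose omission turned the sign. Peaks of 5-fold or more, a wider window and depth select other peaks, and depth limits which weak peaks are called at all. A peak not listed was not detected at that depth, which does not show that it was absent.

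The number of cathepsin loci called, 4 with Raf in normoxia, was 7 without scaling. The 6 with Raf in hypoxia were 3 at a mean of at least 5 peaks and with 2 kb on each side, where 6 loci were tested. The 0 for hypoxia in Raf-inactive cells became 1 without scaling, at 5-fold, at -log10 q of at least 5, at equal length, in base pairs and with 50 kb. The 1 in Raf-active cells became 2 with median-ratio scaling, 5-fold, -log10 q, equal length, matched depth, 2 kb and only the groups compared, 3 in base pairs and 4 with 50 kb. The 0 for the interaction became 1 with median-ratio scaling, 5-fold, -log10 q, matched depth and 2 kb, 2 at equal length and 3 in base pairs. Leaving out 1 library gave 4 to 4, 5 to 6, 0 to 2, 1 to 2 and 0 to 2 called loci in the 5 comparisons in this order. The 2 called for hypoxia in Raf-inactive cells came without Raf-inactive normoxia replicate 1 (CTSZ at -0.45 and CTSA at 0.52). Of all loci, hypoxia in Raf-inactive cells called 3543 in base pairs and 1025 with only the groups compared, hypoxia in Raf-active cells 6287 in base pairs and 6254 with 50 kb, and the interaction 4833 in base pairs. Leaving out 1 library gave 8951 to 9568, 8494 to 9145, 1391 to 1879, 3403 to 4134 and 2376 to 2660.

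Of merged regions, matched depth gave 7 gained with Raf in normoxia, 9 gained with Raf in hypoxia, 0 lost in hypoxia with Raf inactive, and 2 gained and 0 lost in hypoxia with Raf active. Peaks of at least 5-fold gave 2 gained with Raf in hypoxia, 1 gained in hypoxia with Raf inactive, and 1 gained and 3 lost with Raf active. A looser rule (3 or more libraries against 1 or fewer) gave 10 lost with Raf in normoxia, 2 gained and 2 lost in hypoxia with Raf inactive, and 2 lost with Raf active. Coverage of at least 25% of the region gave 1 gained in hypoxia with Raf inactive.

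With the replicate number as a block, 9439 and 8993 loci were called with Raf in normoxia and hypoxia, 1791 and 3919 with hypoxia in Raf-inactive and Raf-active cells, and 2629 for the interaction, with 4, 5, 0, 1 and 0 cathepsin loci. Of 45 cathepsin results the block changed the call of 1, CTSA with Raf in hypoxia. Libraries with the same number did not deviate together: the 24 correlations ran from -0.0387 to 0.0195, and 3 of 16 libraries were closest to their own number.

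CTSB with Raf in normoxia turned to -0.18 at 5-fold, -0.024 at -log10 q from 5 up, -0.090 at equal length, -0.00085 at matched depth and -0.049 with 50 kb. CTSK there turned to -0.26 at 5-fold, -0.069 at -log10 q from 5 up, -0.082 in base pairs and -0.0030 to 0.20 without 1 library (turned by Raf-active normoxia 3). CTSS there turned to 0.15 without scaling, 0.44 at 5-fold, 0.028 at equal length, 0.021 in base pairs, 0.21 with 2 kb, 0.19 with 50 kb and -0.19 to 0.0083 without 1 library (turned by Raf-inactive normoxia 1 and 3 and Raf-active normoxia 4). CTSZ there turned to -0.11 at equal length and -0.0013 at matched depth. CTSH there turned to -0.18 with 50 kb. CTSA there turned to 0.16 without scaling, 0.11 at equal length, 0.096 at matched depth, 0.098 in base pairs, 0.25 with 50 kb and -0.13 to 0.076 without 1 library (turned by Raf-inactive normoxia 1).

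CTSB with Raf in hypoxia turned to -0.15 at 5-fold, -0.011 at -log10 q from 5 up and -0.070 at equal length. CTSK there turned to 0.0074 without scaling. CTSZ there turned to -0.10 at 5-fold. CTSH there turned to -0.0057 with median-ratio scaling, -0.011 with 2 kb, -0.092 with 50 kb and -0.010 to 0.098 without 1 library (turned by Raf-active hypoxia 4). CTSA there turned to 0.018 with 50 kb.

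CTSB with hypoxia in Raf-inactive cells turned to -0.031 without scaling, -0.13 at -log10 q from 5 up, -0.12 at equal length, -0.053 at matched depth, -0.045 in base pairs, -0.053 with 50 kb and -0.014 to 0.068 without 1 library (turned by Raf-inactive normoxia 1 and 3 and Raf-inactive hypoxia 4). CTSD there turned to 0.25 at 5-fold, 0.053 at -log10 q from 5 up, 0.028 at matched depth, 0.036 with 2 kb, 0.0056 with 50 kb and -0.064 to 0.033 without 1 library (turned by Raf-inactive normoxia 1 and 2 and Raf-inactive hypoxia 1, 3 and 4). CTSK there turned to -0.13 at 5-fold, -0.028 in base pairs and -0.023 to 0.13 without 1 library (turned by Raf-inactive normoxia 3 and Raf-inactive hypoxia 4). CTSS there turned to 0.0038 at 5-fold and 0.15 with 2 kb. CTSC there turned to 0.051 with 2 kb and 0.0062 with 50 kb. CTSH there turned to -0.19 at 5-fold, -0.021 at -log10 q from 5 up, -0.036 at equal length, -0.061 at matched depth and -0.10 with 50 kb.

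CTSL with hypoxia in Raf-active cells turned to -0.026 at equal length and -0.083 at matched depth. CTSB there turned to 0.035 at 5-fold, 0.061 in base pairs, 0.025 with 2 kb, 0.040 with 50 kb and -0.091 to 0.018 without 1 library (turned by Raf-active normoxia 3 and Raf-active hypoxia 1). CTSD there turned to -0.068 at 5-fold. CTSS there turned to -0.093 at 5-fold and -0.11 with 50 kb. CTSZ there turned to -0.44 at 5-fold, -0.13 at -log10 q from 5 up, -0.093 at equal length, -0.14 at matched depth, -0.068 in base pairs and -0.023 to 0.13 without 1 library (turned by Raf-active normoxia 2). CTSH there turned to 0.058 in base pairs. CTSA there turned to -0.092 in base pairs.

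CTSB for the interaction turned to 0.031 at 5-fold, 0.013 at -log10 q from 5 up, 0.020 at equal length, 0.0055 at matched depth, 0.11 in base pairs and 0.094 with 50 kb. CTSD there turned to -0.31 at 5-fold. CTSS there turned to -0.096 at 5-fold and -0.079 with 50 kb. CTSZ there turned to -0.28 at 5-fold. CTSC there turned to -0.033 with 2 kb. CTSH there turned to 0.091 with 50 kb.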
